A study of Homo sapiens with 8 samples.

Results

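The 10 genes described here are CYR61, CTGF, THBS1, AMOTL1, AMOTL2, ANKRD1, LATS2, F3, YAP1 and TEAD1, out of 17166 genes in the deposited table. They comprise targets of the transcriptional co-activator YAP and its DNA-binding partners of the TEAD family, together with YAP1 and TEAD1 themselves. They were chosen by gene symbol, on a proposal made with results from these libraries already in view. Their values, and their calls at a threshold where given, are therefore only a description, and no p-value is printed for them. Of the 10, 9 passed a filter of a mean of at least 1 FPKM over all libraries and entered the fit, and ANKRD1 did not. FPKM, the unit of the table, counts fragments relative to the length of the transcript and to library size.

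The cells were HCT116, a human colorectal carcinoma line, carrying 1 of 2 short hairpin RNAs against the homeobox gene HOXB8, stably introduced and switched on by doxycycline (dox). Each line, called sh1 and sh2 after its hairpin, was grown for 72 hours with or without 1 ug/ml dox, which gives 4 groups of 2 libraries, 8 in all. The table's columns name the second line sh3, and it was taken as sh2 by elimination. All 8 libraries carry a HOXB8 hairpin, no library without one received dox, and the genotype of each line beyond its hairpin is not given in the labels. Per the labels the repeats are independent, but whether they came from separate cultures is not stated, and p-values then measure only the spread between these samples.

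HOXB8 read 20.8 and 20.4 FPKM in sh1 cells without dox, 6.54 and 5.74 with it, 17.3 and 18.4 in sh2 cells without dox, and 7.39 and 6.41 with it. It fell by 1.60 and 1.26 on the log2(FPKM + 1) scale in sh1 and sh2 cells (limma, adjusted p = 7.49e-06 and 8.63e-05). FPKM summed to between 440063 and 446889 per library, with 15592 to 15762 genes above 0. Absolute read depth is unknown, so no counting interval is given; among 3508 genes above 0 somewhere but under 0.3 FPKM in all libraries, the median non-zero value was 0.06 FPKM in each library. Of the epithelial markers, KRT8 and KRT18 were abundant, at 1031 to 1492 and 561 to 842 FPKM, while VIL1 and CEACAM5 were near 0. Of the other markers listed, fibroblast COL1A2, COL3A1 and PDGFRA and endothelial CDH5 lay between 0 and 0.01 FPKM, but COL1A1 read 6.28 to 8.38 FPKM, the macrophage marker CD68 5.27 to 8.40 and the leukocyte marker PTPRC 1.09 to 1.64.

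In the Hippo pathway, the kinases STK3 and STK4 with the adaptor SAV1 activate the kinases LATS1 and LATS2, which phosphorylate YAP and its paralog TAZ (WWTR1) and keep them out of the nucleus. YAP that reaches the nucleus binds TEAD factors on enhancers and promoters and switches on genes for matricellular proteins such as CYR61 and CTGF, and for its own inhibitors, among them LATS2 and AMOTL2. In epithelial cells this output follows cell density, stretch and attachment, and YAP is required for regeneration of the intestinal epithelium after injury.

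The sequences that follow are the RefSeq promoter windows, on build GRCh38.p14, of the genes with the largest differences between groups, 250 bases before the annotated start to 50 after it. RefSeq windows were matched for 8 of the 10 genes; CYR61 and TEAD1 are named without a window. Capitals mark the TEAD motif, GGAATG on the window strand or CATTCC on the other, and in F3 the AP-1 motif TGAGTCA. The window of CTGF lies at chr6:131951323-131951622 on the minus strand, THBS1 at chr15:39580829-39581128 on the plus strand, the second AMOTL2 window at chr3:134374398-134374697 on the minus strand, and F3 at chr1:94541710-94542009 on the minus strand.
CTGF: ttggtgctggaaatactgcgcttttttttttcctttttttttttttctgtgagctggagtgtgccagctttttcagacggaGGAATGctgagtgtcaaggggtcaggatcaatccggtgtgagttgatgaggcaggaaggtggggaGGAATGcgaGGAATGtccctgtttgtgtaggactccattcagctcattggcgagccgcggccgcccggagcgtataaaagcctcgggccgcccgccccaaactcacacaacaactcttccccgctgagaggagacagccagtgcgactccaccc
THBS1: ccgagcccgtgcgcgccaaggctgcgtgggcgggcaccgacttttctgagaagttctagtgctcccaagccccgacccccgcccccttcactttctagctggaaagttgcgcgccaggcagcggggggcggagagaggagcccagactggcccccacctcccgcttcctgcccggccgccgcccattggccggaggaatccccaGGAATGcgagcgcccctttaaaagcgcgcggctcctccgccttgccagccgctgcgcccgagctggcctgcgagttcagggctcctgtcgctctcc
AMOTL2: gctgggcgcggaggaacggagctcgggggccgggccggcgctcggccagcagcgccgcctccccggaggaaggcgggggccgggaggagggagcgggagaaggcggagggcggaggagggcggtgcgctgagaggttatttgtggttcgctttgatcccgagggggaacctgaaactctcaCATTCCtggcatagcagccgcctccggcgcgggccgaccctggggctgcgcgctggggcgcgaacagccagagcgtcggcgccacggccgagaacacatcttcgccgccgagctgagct
F3: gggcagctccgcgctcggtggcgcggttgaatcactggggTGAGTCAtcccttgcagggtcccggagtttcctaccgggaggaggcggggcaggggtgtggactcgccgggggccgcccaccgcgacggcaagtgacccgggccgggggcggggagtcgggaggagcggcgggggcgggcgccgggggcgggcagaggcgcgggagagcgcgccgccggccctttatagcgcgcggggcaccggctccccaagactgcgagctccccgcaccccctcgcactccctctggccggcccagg

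The CTGF window held 3 TEAD motifs, with their first bases at positions -169, -104 and -95, counted back from the start. The THBS1 window had 1 at -46, and 1 of the 2 AMOTL2 windows had 1 at -69 on the opposite strand. At least 3 matches occurred in 45 of 35116 RefSeq windows (0.128%). The motif also occurred in the windows of ANKRD1, LATS2 and YAP1, shown as 30-base stretches to set the flanks of the motif side by side.
ANKRD1 at -220: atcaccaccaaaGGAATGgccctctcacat
ANKRD1 at -128: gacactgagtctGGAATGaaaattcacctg
LATS2 at 10: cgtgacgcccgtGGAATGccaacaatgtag
YAP1 at -162: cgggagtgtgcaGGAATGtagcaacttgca

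In all, 6 of the 8 genes with a window held the TEAD motif, against 16.7% of the 27305 genes with a window and 8 of 18 other YAP and TEAD targets with a window. Both sets were listed for their ties to YAP and TEAD, so nothing is read from their shares against that of all genes. A motif of this length also turns up in 14.0% of all windows, and a match is a string of letters, not a measured binding site. The AMOTL1 and F3 windows held none. The AP-1 motif (TGACTCA or TGAGTCA) was found in F3, at -210, and in 4.95% of all windows, while TATAAA, searched on the window strand, was found in CTGF at -32 and in 7.33% of all windows. These are the letters of the reference genome, not of HCT116.

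**Figure D1:**
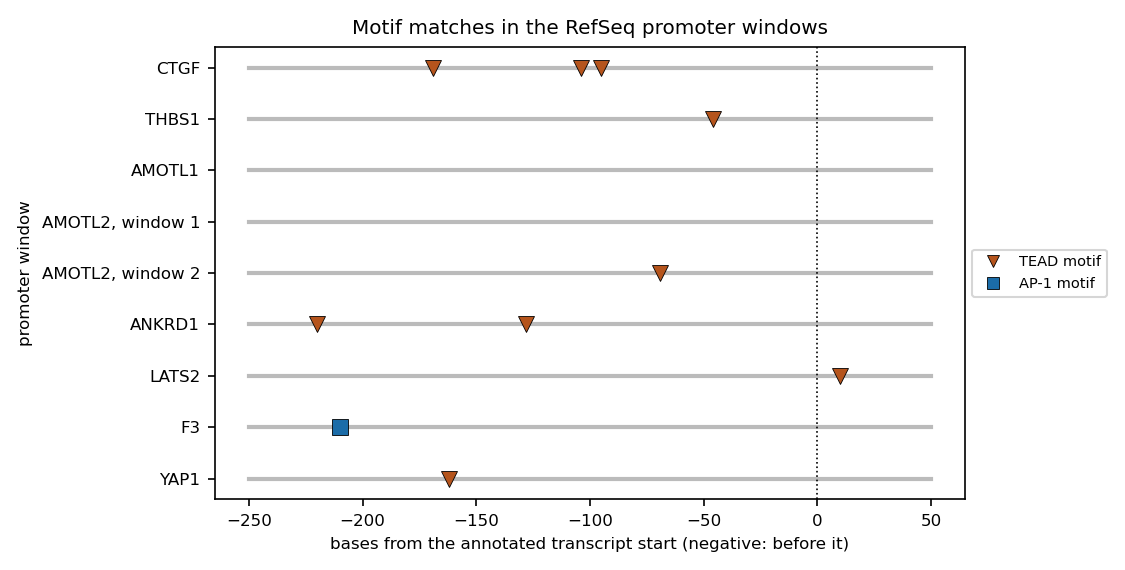
Positions of the TEAD (triangles) and AP-1 (square) motifs in the promoter windows of the genes with a RefSeq window; the x axis is bases from the annotated start and each grey line is 1 window. CTGF has 3 TEAD matches, and F3 has an AP-1 match and no TEAD match.

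CYR61, CTGF and THBS1, the genes for secreted matricellular proteins, had the largest differences among the 9 tested genes. All were highest in sh1 cells without dox, at 14.4 ± 0.629, 4.40 ± 0.141 and 9.72 ± 0.700 FPKM (SD, n = 2). In sh1 cells with dox they were 57.3%, 54.6% and 54.3% lower. In sh2 cells the level without dox was already 50.1%, 51.4% and 58.2% below that of sh1 cells without dox, and the mean with dox was a further 30.0%, 35.3% and 16.1% lower, differences that depend on single libraries. In bulk RNA, fewer cells of a kind and less RNA per cell cannot be told apart.

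CYR61 (also CCN1), a matricellular ligand of integrins, read 14.8 and 13.9 FPKM in sh1 cells without dox, 6.26 and 6.01 in sh1 cells with dox, 7.47 and 6.88 in sh2 cells without dox, and 5.67 and 4.38 in sh2 cells with dox. The order from high to low was sh1 without dox, sh2 without dox, sh1 with dox and sh2 with dox, and no neighbours in it overlapped. The log2(FPKM + 1) change with dox was -1.11 (SE 0.09) in sh1 cells and -0.45 (SE 0.09) in sh2 cells, where it was -0.60 without the first and -0.29 without the second dox library.

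CTGF (CCN2), a matricellular protein of fibrosis and wound repair, is the gene whose window held 3 TEAD motifs. Its FPKM were 4.50 and 4.30 in sh1 cells without dox, 2.22 and 1.78 with dox, 2.49 and 1.79 in sh2 cells without dox, and 1.32 and 1.45 with dox. The sh1 libraries without dox stood alone at the top, and sh2 without dox overlapped sh1 with dox. The changes with dox were -0.85 (SE 0.12) in sh1 and -0.39 (SE 0.12) in sh2 cells. The sh2 change was -0.55 without the second and -0.23 without the first no-dox library. At this level the added 1 FPKM shrinks the changes, and with 0.1 added the sh1 change was -1.11.

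THBS1, thrombospondin 1, an adhesive glycoprotein that restrains angiogenesis, read 10.2 and 9.22 FPKM in sh1 cells without dox, 4.87 and 4.02 with dox, 3.93 and 4.20 in sh2 cells without dox, and 3.97 and 2.85 with dox. Here the sh1 dox libraries overlapped the sh2 libraries without dox, and the sh2 libraries with and without dox overlapped each other. The change with dox was -0.98 (SE 0.12) in sh1 and -0.21 (SE 0.12) in sh2 cells. The sh2 value rests on 1 library, the second with dox, without which it was -0.03, and it was -0.40 without the first. Of its paralogs, THBS2 and THBS4 stayed below 0.3 FPKM. THBS3, at 1.79 to 4.20 FPKM, did not pass the test for dox over both lines (change 0.25, limma adjusted p = 0.203), but did without the first sh2 dox library (0.42, adjusted p = 0.00642).

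F3, tissue factor, the cell-surface initiator of coagulation, was the most abundant of the 10 genes in sh1 cells without dox. It read 50.4 and 43.8 FPKM there, 30.7 and 25.3 in sh1 cells with dox, 33.2 and 31.1 in sh2 cells without dox, and 26.0 and 23.5 in sh2 cells with dox. Every library with dox lay below every library without it, with 30.7 FPKM as the highest with dox and 31.1 as the lowest without, while the dox groups of the lines overlapped. The change with dox was -0.73 (SE 0.09) in sh1 and -0.37 (SE 0.09) in sh2 cells.

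AMOTL1 and AMOTL2 encode angiomotin-like junction proteins that bind YAP and hold it outside the nucleus. AMOTL2 had 20.6 and 18.4 FPKM in sh1 cells without dox, 14.3 and 11.4 with dox, 14.0 and 12.4 in sh2 cells without dox, and 11.1 and 11.1 with dox. Its sh1 dox libraries spread across the range of the sh2 libraries without dox. AMOTL1 had 11.8 and 11.6 FPKM in sh1 cells without dox, 10.7 and 10.4 with dox, 11.6 and 11.5 in sh2 cells without dox, and 10.7 and 10.3 with dox. AMOTL1 thus differed between dox and no dox by 9.76% in sh1 and 9.44% in sh2 cells, without overlap, and by 1.11% between the lines without dox; AMOTL2 differed by 33.9%, 16.1% and 32.2% in the same comparisons. The AMOTL2 change in sh2 cells was -0.23, and -0.15 without the first no-dox library.

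LATS2, the kinase that phosphorylates YAP and is induced by it, varied by a ratio of 1.19 from its lowest to its highest library. It read 5.12 and 5.10 FPKM in sh1 cells without dox, 4.94 and 4.31 with dox, 4.80 and 4.76 in sh2 cells without dox, and 4.34 and 4.39 with dox. The changes with dox were -0.12 and -0.11 (SE 0.07 for both), and that in sh1 cells was -0.20 without the first and -0.04 without the second dox library. ANKRD1, a nuclear ankyrin-repeat protein best known from striated muscle, read 0.11 and 0.21 FPKM in sh1 cells without dox and 0 to 0.11 in the other 6 libraries, too low to compare.

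YAP1 itself was nearly level across the libraries, from 34.3 to 36.4 FPKM. It read 35.4 and 35.9 in sh1 cells without dox, 34.3 and 35.8 with dox, 36.2 and 36.4 in sh2 cells without dox, and 34.5 and 34.4 with dox, so that the groups overlapped in sh1 cells and did not in sh2 cells. The changes were -0.02 and -0.07 (SE 0.04 for both). TEAD1, a DNA-binding partner of YAP, had 16.7 and 16.2 FPKM in sh1 cells without dox, 14.1 and 13.4 with dox, 16.4 and 15.1 in sh2 cells without dox, and 14.1 and 13.3 with dox. Its 4 dox libraries lay below its 4 libraries without dox, by 16.0% in sh1 and 13.1% in sh2 cells, and the lines differed by 4.02% without dox.

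**Figure D2:**
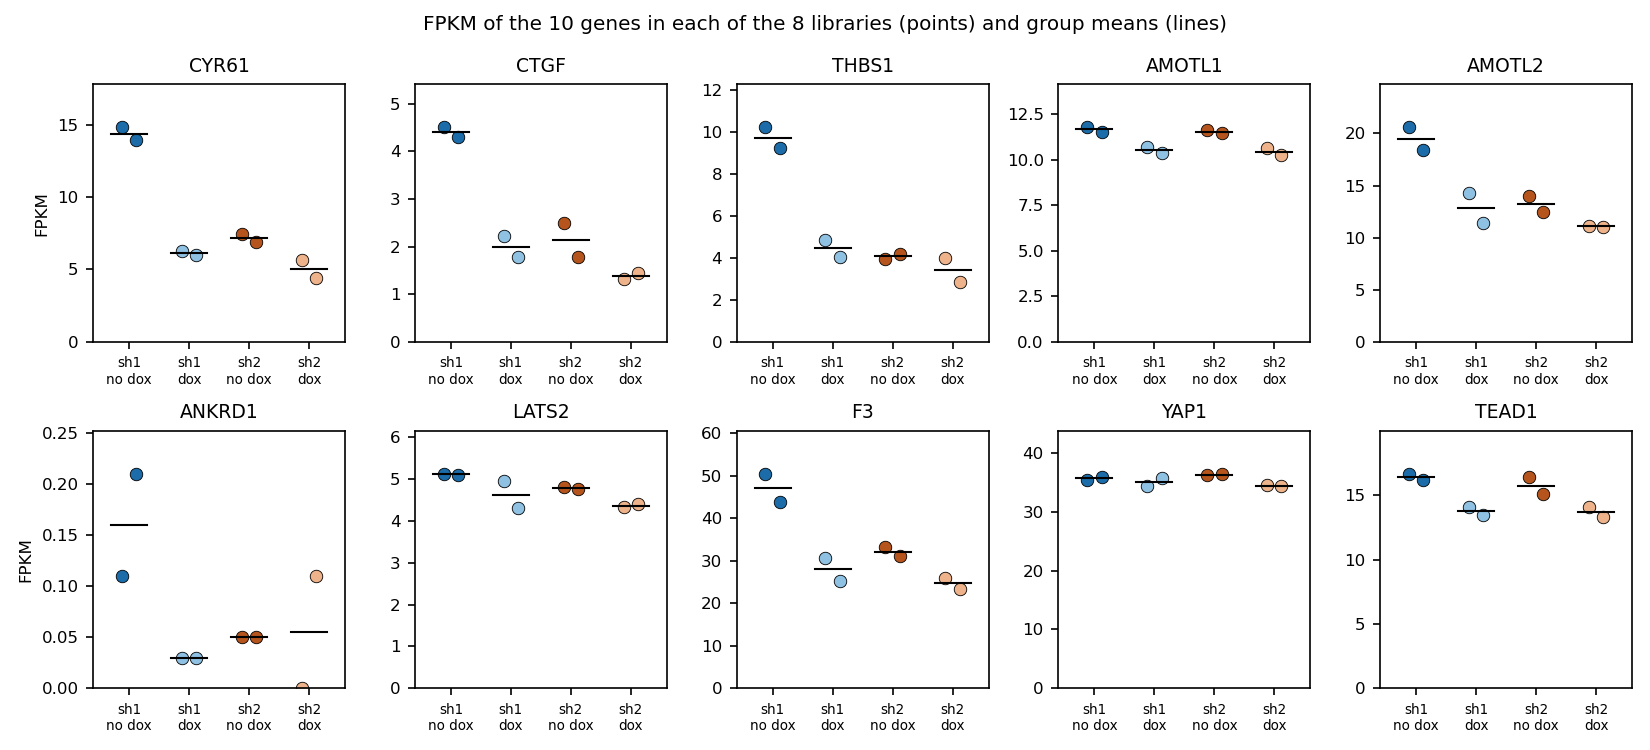
FPKM of the 10 genes (y axis, from 0 in each panel) in the 4 groups (x axis), with 1 point per library and a line at the group mean (n = 2). CYR61, CTGF, THBS1, AMOTL2 and F3 are highest in the sh1 libraries without dox, YAP1 stays between 34.3 and 36.4 FPKM, and ANKRD1 does not exceed 0.21 FPKM.

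Across the whole table, limma called 726 of 11712 genes lower with dox over both lines (6.20%) and 1180 higher (10.1%) at an adjusted p under 0.05. Among the 9 tested genes of the set, 7 were lower, all but LATS2 and YAP1, and 0 were higher (8 lower and 0 higher at an unadjusted p under 0.05). In sh1 cells 6 of the 9 were lower (CYR61, CTGF, THBS1, AMOTL2, F3 and TEAD1), beside 2.56% of all genes lower and 3.71% higher. In sh2 cells 1 was lower, CYR61, beside 1.15% lower and 1.38% higher, and 0 with no filter on low values. With no term for the line, 4 were lower over both lines, CYR61, AMOTL1, F3 and TEAD1. Because the set was proposed from these comparisons, nothing is read from its counts against those shares.

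The AMOTL1 call over both lines was lost on leaving out any 1 library except the first sh2 dox repeat. The CYR61 call in sh2 cells was lost on leaving out any 1 library except the first sh2 dox repeat. The median change of the 9 genes was -0.40 over both lines, -0.57 in sh1 and -0.21 in sh2 cells, beside medians of 0.02, 0.03 and 0.01 over all tested genes. In sh1 cells AMOTL2 was not called without the second dox or the first no-dox repeat, and TEAD1 was not called without any 1 of the sh1 libraries or of the sh2 libraries without dox.

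Without dox, sh2 cells were lower than sh1 cells in 5 of the 9 genes, CYR61, CTGF, THBS1, AMOTL2 and F3, with 0 higher, beside 0.623% of all genes lower and 0.828% higher. This comparison shares the sh1 libraries without dox with the dox comparison in sh1 cells, so the 2 are not independent. The differences were -0.91, -0.79, -1.08, -0.53 and -0.53 on the log2(FPKM + 1) scale, and those of TEAD1, AMOTL1, LATS2 and YAP1 were -0.06, -0.01, -0.08 and 0.03. The count fell from 5 to 2 when either sh1 or either sh2 library without dox was left out, with CYR61 among the 2 each time, and to 0 with no filter on low values.

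With dox, the lines lay closer together: 0 of the 9 genes were called (3 lower and 0 higher at an unadjusted p under 0.05), beside 0.0427% of all genes lower and 0.0171% higher. The sh2 minus sh1 differences with dox were -0.25 for CYR61, -0.33 for CTGF, -0.31 for THBS1, -0.19 for AMOTL2 and -0.17 for F3. Leaving out 1 library gave -0.41 to -0.10 for CYR61, -0.50 to -0.13 for THBS1 (both by the sh2 dox libraries), -0.34 to -0.04 for AMOTL2 and -0.30 to -0.03 for F3 (both by the sh1 dox libraries), and -0.43 to -0.22 for CTGF. The difference of the dox effects, sh2 minus sh1, was 0.66 (SE 0.13) for CYR61, 0.77 (SE 0.17) for THBS1 and 0.46 (SE 0.16) for CTGF. It was 0.37 (SE 0.13) for F3 and 0.34 (SE 0.13) for AMOTL2. By construction it equals the line difference with dox minus that without dox, so it is not a further result. No gene of the table was called for such a difference by limma (0% of 11712; 566 at an unadjusted p under 0.05), and of the 9 genes 0 were called (5 higher and 0 lower at an unadjusted p under 0.05). HOXB8 differed between the lines without dox by -0.20 (adjusted p = 0.203).

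**Figure D3:**
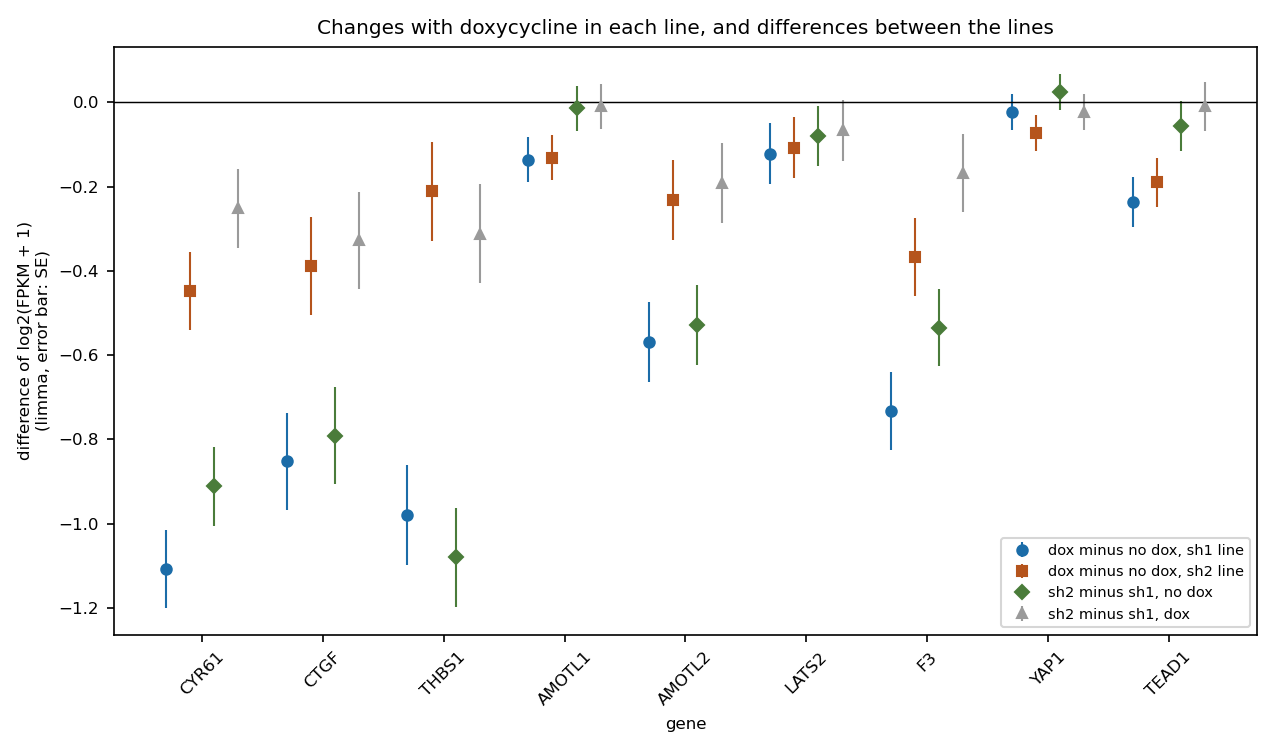
Differences of log2(FPKM + 1) from limma (y axis, error bars SE) for the 9 tested genes (x axis): the dox effect in each line and the sh2 minus sh1 difference without and with dox. CYR61, CTGF, THBS1, AMOTL2 and F3 differ most in the sh1 dox effect and between the lines without dox, while AMOTL1, LATS2, YAP1 and TEAD1 lie within 0.3 of 0 in all 4.

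The epithelial keratins KRT8 and KRT18 moved in the same comparisons, and KRT19 was not called in them. Its changes were -0.15 with dox in sh1 cells and -0.02 between the lines without dox (limma adjusted p = 0.099 and 0.863). KRT8, an intermediate filament protein of simple epithelia, was lower with dox in sh1 cells (-0.35, limma adjusted p = 0.00128) and in sh2 cells relative to sh1 cells without dox (-0.38, adjusted p = 0.00207), and its partner KRT18 was lower too (-0.40, adjusted p = 0.0022, and -0.36, adjusted p = 0.00862). The summed FPKM of the 8 epithelial markers ran from 3262 to 3324 in sh1 cells without dox and 2714 to 2735 with dox. In sh2 cells it ran from 2681 to 2855 without dox and 2598 to 2599 with dox. Most of each sum was KRT8, KRT18 and KRT19, with means of 1484, 819 and 768 FPKM in sh1 cells without dox, so it mainly follows these keratins. CDH1 (E-cadherin) and EPCAM rose over both lines (0.24, adjusted p = 0.0029, and 0.13, adjusted p = 0.0106). EPCAM was not called without the first sh1 no-dox library (adjusted p = 0.0615), nor KRT18 between the lines without the second sh1 or the first sh2 no-dox library (0.102 and 0.0924). With no filter on low values neither keratin was called between the lines (KRT8 0.0513, KRT18 0.097). Fibroblast marker sums lay between 6.36 and 8.47 FPKM in all libraries, nearly all of it COL1A1. The endothelial and immune sums ran from 6.89 to 9.03 FPKM in sh1 cells without dox, 8.45 to 8.91 with dox, 8.56 to 9.96 in sh2 cells without dox and 10.1 to 10.6 with dox. The part of any of these in the differences above was not tested.

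A further list of 27 YAP and TEAD targets shared none of the 10 genes, and 18 of the 27 passed the filter. Like the 10 genes, this list and those below were chosen with earlier results of these data known. Nothing is therefore read from their counts against the shares over all genes. With dox over both lines 5 of the 18 fell and 0 rose (8 lower and 1 higher at an unadjusted p under 0.05), beside 6.20% of all genes lower and 10.1% higher, with a median of -0.09. With no term for the line 1 was called. CRIM1, a membrane-bound regulator of growth factors, fell by 0.30 (limma adjusted p = 0.00142) and the receptor tyrosine kinase AXL fell by 0.24 (adjusted p = 0.00856). ASAP1, an Arf GTPase-activating protein, fell by 0.23 (adjusted p = 0.00548) and DOCK5, a Rac exchange factor, fell by 0.19 (adjusted p = 0.00814). Transglutaminase TGM2 fell by 0.31 (adjusted p = 0.0222), and it was not called with no filter on low values (limma adjusted p = 0.089). The TGM2 call was lost without the second sh1 dox, first sh1 no-dox, second sh2 dox or first sh2 no-dox library (adjusted p = 0.0664 to 0.0917).

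AXL read 46.2 and 47.5 FPKM in sh1 cells without dox, 36.5 and 35.8 with dox, 33.9 and 35.9 in sh2 cells without dox, and 29.9 and 34.9 with dox, so its sh1 libraries without dox stood apart and the other groups ran into each other. CRIM1 read 19.1 and 18.4, 14.5 and 13.5, 14.7 and 13.9, and 12.1 and 12.6 FPKM in the same order of groups. In sh1 cells 4 fell: CRIM1 by 0.40 (limma adjusted p = 0.004), AXL by 0.37 (0.0128), TGM2 by 0.53 (0.0221) and ASAP1 by 0.25 (0.0283), beside 2.56% of all genes lower. In sh2 cells 0 of the 18 were called in limma (3 lower and 1 higher at an unadjusted p under 0.05), beside 1.15% of all genes lower. With no filter on low values AXL, TGM2 and ASAP1 were not called in sh1 cells (limma adjusted p = 0.068, 0.103 and 0.0761). The sh1 count was then 2, over all 27 listed genes, and included a gene other than the 4 named. It dropped to 0 without the first sh1 no-dox library, and to 1, CRIM1, without the second sh1 no-dox or the second sh1 dox library. ASAP1 was also lost without the first sh1 dox library (adjusted p = 0.051).

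Without dox, 3 of the 18 were lower in sh2 than in sh1 cells: CRIM1 by -0.37 (limma adjusted p = 0.0154), AXL by -0.42 (0.0162) and AJUBA, a LIM-domain inhibitor of LATS kinases, by -0.28 (0.046), beside 0.623% of all genes lower. All 3 calls were lost when any 1 of the 4 libraries without dox was left out, and with no filter on low values. The test of unequal dox effects called 0 of the 18 (0 lower and 4 higher at an unadjusted p under 0.05), and the lines with dox gave 0 (5 lower and 1 higher). Among listed targets that did not pass the filter, EDN1, endothelin 1, read 0.57 and 0.62 FPKM in sh1 cells without dox and 0.27 and 0.23 with dox. In sh2 cells it read 0.48 and 0.43 without dox and 0.13 and 0.23 with dox. These are low values, and EDN1 was named after they were seen. The other listed targets below the filter were CCDC80, TGFB2, RBMS3, IGFBP3, INHBA, DLC1, SDPR and FOXF2. They read at most 0.22 FPKM, and each overlapped between dox and no dox.

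Among 22 tested Hippo kinases, adaptors and upstream regulators, 7 fell with dox over both lines and 0 rose (7 lower and 1 higher at an unadjusted p under 0.05), beside 6.20% of all genes lower and 10.1% higher, with a median of -0.05. With no term for the line 4 were called. The kinase STK3 (MST2) fell by 0.27 (limma adjusted p = 0.00166), its scaffold SAV1 by 0.17 (0.0129) and the STRIPAK subunit SLMAP by 0.17 (0.0139). The upstream scaffolds FRMD6, WWC1 (KIBRA) and NF2 (merlin) fell by 0.34 (0.00282), 0.25 (0.0034) and 0.20 (0.00568). WTIP, a LIM protein of the Ajuba family, fell by 0.25 (0.0166), and it was not called with no filter on low values (limma adjusted p = 0.0546). SAV1, SLMAP and WTIP were lost without the first sh1 no-dox library (adjusted p = 0.0591, 0.0548 and 0.0751), which left 4 calls. SAV1 and WTIP were also lost without the first sh2 no-dox library (0.0577 and 0.0686), WTIP without the second sh1 dox library (0.054) and SLMAP without the second sh2 no-dox library (0.0542).

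In this list members act in both directions on YAP: STK3, SAV1, NF2, WWC1 and FRMD6 are known as activators of LATS kinases, and SLMAP and WTIP as inhibitors of the pathway. STK3 read 18.1 and 17.8 FPKM in sh1 cells without dox, 15.5 and 14.7 with dox, 18.3 and 18.0 in sh2 cells without dox, and 14.3 and 15.1 with dox. Its groups with and without dox did not overlap, and the lines without dox did. NF2 read 33.7 and 31.7, 26.4 and 25.4, 27.3 and 26.4, and 26.0 and 24.8 FPKM in that order of groups, with the sh1 libraries without dox apart from the rest.

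In sh1 cells 6 of the 22 fell, NF2, WWC1, WTIP, FRMD6, STK3 and SAV1, by 0.24 to 0.42 (limma adjusted p = 0.00681 to 0.0307), beside 2.56% of all genes lower. That count was 1 with no filter on low values, 2 without the first sh1 dox library, 3 without the second no-dox library, and 0 without the second dox or the first no-dox library. In sh2 cells 2 fell, STK3 by 0.29 (adjusted p = 0.0224) and FRMD6 by 0.34 (0.0424), beside 1.15% of all genes lower, and neither was called with no filter. FRMD6 was not called there without any 1 of the 8 libraries, and STK3 not without the first sh2 dox or either sh2 no-dox library. Without dox NF2 alone differed between the lines (-0.27, adjusted p = 0.0315), beside 0.623% of all genes lower, and it was not called without any 1 of the 4 libraries or with no filter.

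Of the YAP and TEAD paralogs, TEAD4 fell by 0.21 over both lines (limma adjusted p = 0.00361) and by 0.28 in sh1 cells (adjusted p = 0.0127; 0.07 to 0.108 without either sh1 no-dox or the second sh1 dox library). It read 26.2 and 26.0 FPKM in sh1 cells without dox, 22.1 and 20.6 with dox, 22.3 and 22.4 in sh2 cells without dox, and 20.2 and 19.8 with dox. WWTR1 (TAZ), the co-activator paralogous to YAP, read 15.2 to 17.8 FPKM over the 8 libraries and did not pass the test (change -0.10, limma adjusted p = 0.0707; 0.048 after quantile normalization). TEAD2, TEAD3 and the repressive cofactor VGLL4 did not pass it either, and VGLL1 and VGLL3 stayed below 0.2 FPKM.

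**Figure D4:**
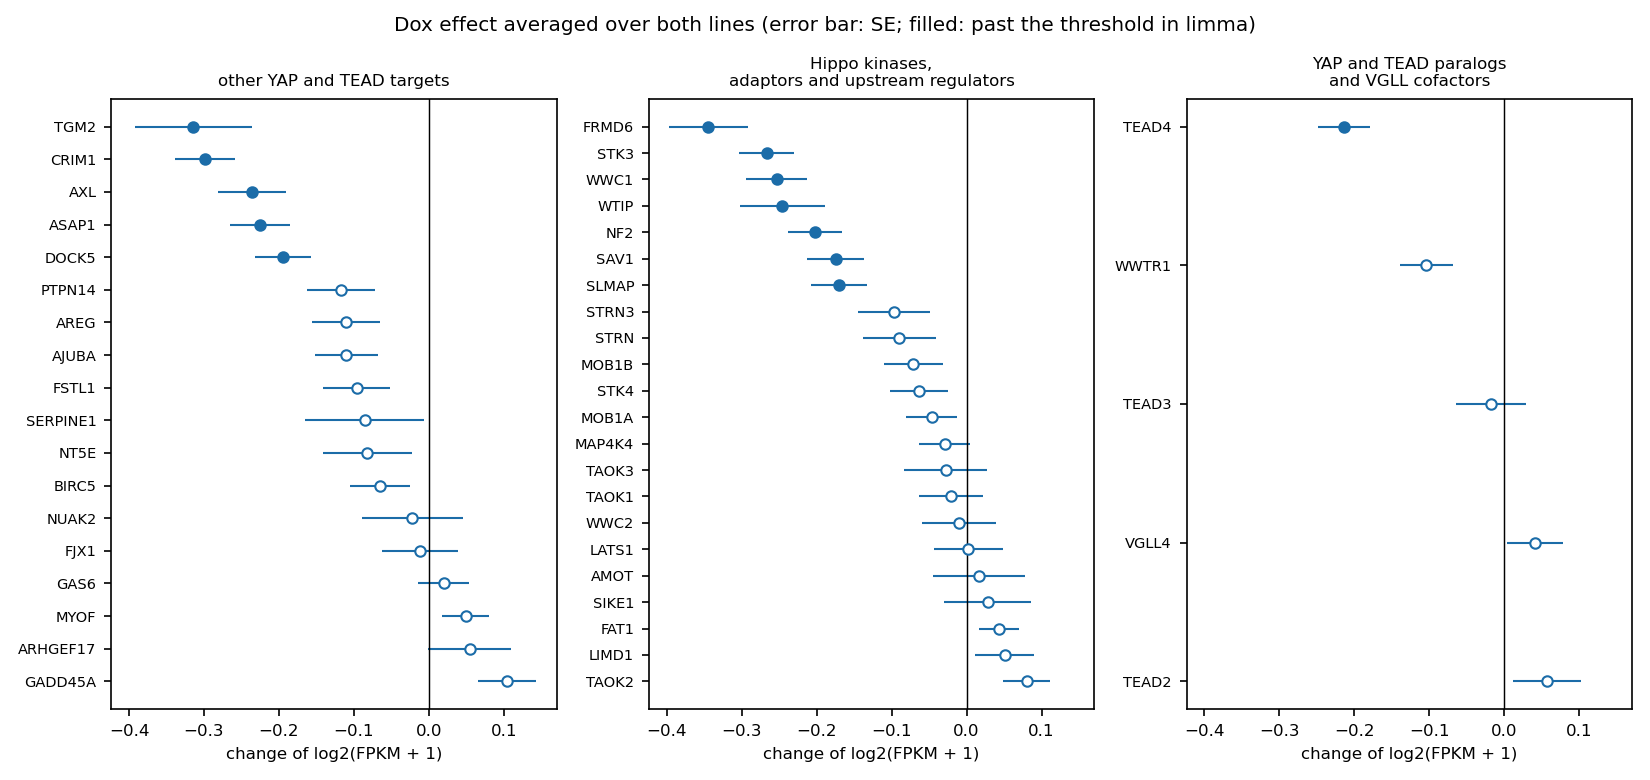
Dox effect averaged over both lines as a difference of log2(FPKM + 1) (x axis, error bars SE) for the tested genes of 3 lists (y axis, 1 gene per line); filled points passed the limma threshold. Filled points all lie below 0: 5 other targets, 7 Hippo regulators and TEAD4.

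The members were also compared by the shape of their profile, as the root mean square difference of log2(FPKM + 1), each gene centred on its own mean over the 8 libraries, where a smaller value is a closer profile. CYR61 was closest to THBS1 (0.129) and CTGF (0.151), then F3 (0.193), and far from YAP1 (0.507), and F3 and AMOTL2 differed by 0.0855. This measure follows the size of the differences as well as their order, and the 8 libraries share the same few groups.

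Outside the set, the genes closest to CYR61 were KRTAP2-3, a keratin-associated protein (0.173), CPA4, a carboxypeptidase (0.174), PLK2, a polo-like kinase (0.222), MAGEB17 (0.25) and NR2F2, a nuclear receptor (0.257). CPA4 (0.143) and PLK2 (0.171) also led for CTGF, followed by ZBED2 (0.195), MAGEB17 (0.206) and CYP24A1 (0.22), and PLK2 (0.0662) led for F3, followed by MAGEB17 (0.0978), NR2F2 (0.117), ZBED2 (0.123) and SYTL3 (0.127). KRTAP2-3 read 41.9 and 37.0 FPKM in sh1 cells without dox, 15.5 and 15.1 with dox, 21.9 and 20.2 in sh2 cells without dox, and 11.4 and 12.2 with dox, in the same order of groups as CYR61 and with no overlap. PLK2 read 17.4 and 15.3 FPKM in sh1 cells without dox, 10.8 and 10.0 with dox, 11.9 and 11.3 in sh2 cells without dox, and 9.29 and 8.17 with dox.

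**Figure D5:**
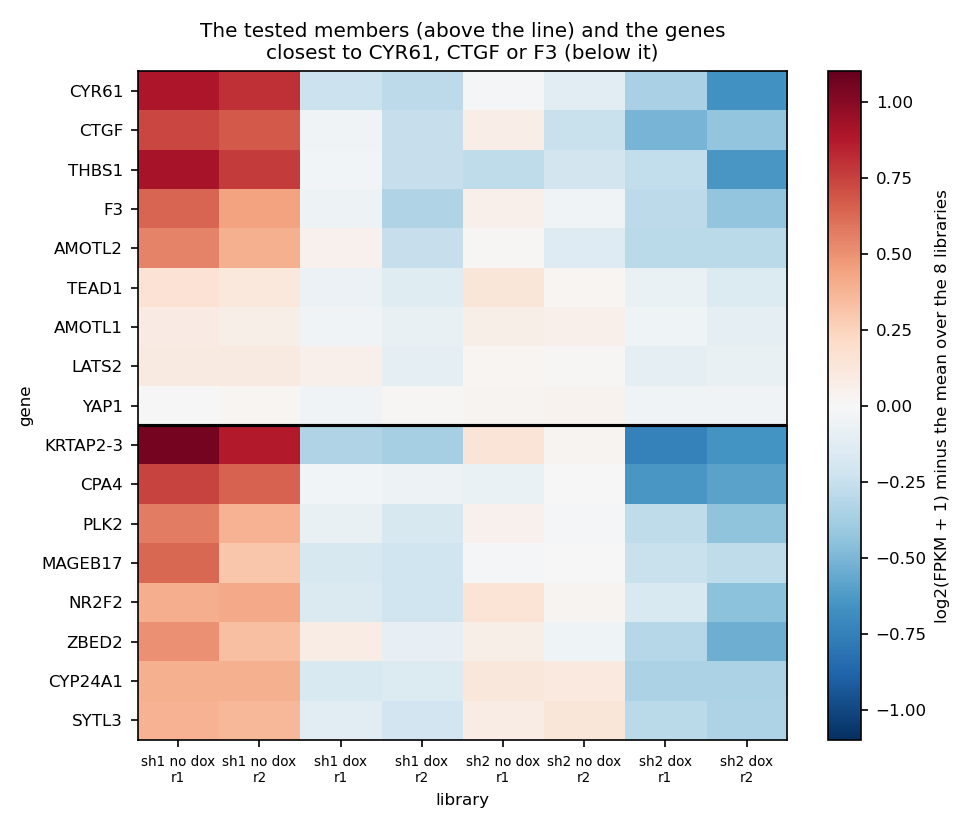
Log2(FPKM + 1) minus each gene's own mean over the 8 libraries (colour, red above and blue below the mean) for the 9 tested genes, above the line, and the 8 genes closest to CYR61, CTGF or F3, below it; columns are libraries. The sh1 libraries without dox are the reddest in CYR61, CTGF, THBS1, F3 and AMOTL2, and the YAP1 row is close to colourless.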

How the data were processed

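PolyA-selected RNA of 8 HCT116 libraries was sequenced. The deposited values are FPKM; per the submitters' processing notes the authors used HISAT and Bowtie2 with build hg19, but neither what each did nor its version, the quantifier or a strand setting is given in the sources used here. The columns named sh3 were taken as the labelled sh2 line by elimination, since sh1 is named in both; the labels' source name calls all samples induced, and the groups follow titles and genotype. A total of 27 symbols turned into dates were restored through Entrez IDs.

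Genes with a mean FPKM of at least 1 (11712 of 17166) were fitted as log2(FPKM + 1) in limma 3.58.1 (R 4.3.3), with 1 mean per group, 4 residual degrees of freedom, a mean-variance trend and Benjamini-Hochberg adjustment over all tested genes, in 6 comparisons (the dox effect over both lines, in each line, its difference, and the lines without and with dox). A log2 fold on this scale understates the change of low genes. With 2 libraries per group precision is limited. Same-numbered repeats were not treated as pairs, because the labels call them independent. Their deviations over all tested genes correlated by -0.03 to 0.22, which does not settle whether they were pairs. In CYR61, F3, AMOTL1, AMOTL2 and TEAD1 the first repeat read above the second in each of the 4 groups. In CTGF, THBS1, ANKRD1, LATS2 and YAP1 it did not in every group.

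The members and the gene lists were chosen with earlier results of these data known. Named are all members, up to 6 called genes per list and comparison by smallest p, and the 5 genes closest in profile to CYR61, CTGF and F3; EDN1, WTIP over both lines, THBS3, WWTR1 and the epithelial markers were named after their values were seen. Alternatives were a pseudocount of 0.1, no filter, quantile normalization, TMM factors, no term for the line, a replicate block, and leaving out each library. RefSeq tables gave names for 17131 IDs and the promoter windows.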

Additional observations from a re-analysis of the deposited data

How the results depend on the processing

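Among the set's 711 comparisons of a log2 change with its value under an alternative, 661 moved by less than the spread between repeats and 50 moved by more. Many of the 661 could not move. The log2 change is the same by construction with no filter, a replicate block or no term for the line. It is also the same on leaving out a library outside the comparison. Leaving out a library inside it shifts the change by a fixed share of the difference between 2 repeats. The 661 are therefore no measure of stability. Of the changes that passed the threshold, 0 changed sign. Some small changes that did not pass it changed sign. The YAP1 change with dox in sh1 cells went from -0.02 to 0.005 without the first sh1 dox library. The TEAD1 difference of the dox effects went from 0.05 to -0.009 without the second sh2 no-dox library. Of 550 comparisons for other named genes 449 stayed on their side of the threshold, 99 lost the call, 2 gained one (THBS3 and WWTR1) and 0 changed sign. Calls among the 9 tested members: with no term for the line the count over both lines was 4 (CYR61, AMOTL1, F3 and TEAD1), in place of 7. With no filter on low values, which tests all 17166 genes, it was 0 in sh2 cells and 0 between the lines without dox. Leaving out 1 library gave 6 to 7 over both lines, 4 to 6 in sh1 cells, 0 to 1 in sh2 cells and 2 to 5 between the lines without dox. Other targets: 1 over both lines with no term for the line, 2 in sh1 cells and 0 between the lines without dox with no filter; leaving out 1 library gave 4 to 7 over both lines, 0 to 4 in sh1 cells and 0 to 4 without dox. Hippo regulators: 4 over both lines with no term for the line; 1 in sh1 cells, 0 in sh2 cells and 0 without dox with no filter; 2 without dox with TMM factors; leaving out 1 library gave 4 to 7 over both lines, 0 to 6 in sh1 cells, 0 to 1 in sh2 cells and 0 to 2 without dox. Beyond the fewer or more genes and samples of these settings, the cause was not tested.

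With the replicate number as a block, the count in sh2 cells was 3 members (CYR61, F3 and TEAD1) and 1 other target, and that between the lines without dox was 3 Hippo regulators; the counts of members over both lines (7), in sh1 cells (6) and between the lines without dox (5) were the same. Over all genes the block called 2684 in place of 1906 over both lines, 1362 in place of 734 in sh1 cells, 738 in place of 297 in sh2 cells and 505 in place of 170 without dox; no filter gave 1021, 155, 35 and 23. The labels do not tie same-numbered repeats to each other. Read depth is unknown, which leaves the precision of ANKRD1 and other low genes undetermined.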
